A study of Homo sapiens with 48 samples.

Results

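Gene expression was compared between 6 and 3 days of METTL3 inhibition in Kelly and NGP, human neuroblastoma cell lines with amplified MYCN and a wild-type genotype, as labelled. The libraries were those titled as STM2457-treated and taken at 0 h of actinomycin D, that is, before transcription was blocked: 8 of the 48 libraries of the series, with 2 in each combination of line and day. Every one of these cultures had received 8 µM STM2457, a small molecule that inhibits the catalytic subunit of the m6A methyltransferase, for 3 or 6 days, and within a line the labels differ in the day. The 8 libraries of the same lines treated with DMSO, the solvent, for 3 or 6 days and also taken at 0 h served as the comparison for days in culture without inhibitor. The remaining 32 libraries had been exposed to actinomycin D at 10 µg/ml for 3 or 6 h and were not used. Each group is 1 cell line, and the labels do not say whether its 2 replicates were separate cultures or whether medium and density were alike at 3 and 6 days, so p-values measure only the spread between these libraries. In all 8 groups at 0 h the header name of replicate 2 is that of replicate 1 plus a letter, which does not settle whether they were separate cultures.

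METTL3 is the enzyme that places N6-methyladenosine (m6A) on messenger RNA, mostly near stop codons and in last exons, where reader proteins of the YTH family shorten the life of the transcript or change its translation. Neuroblastoma arises from the sympathoadrenal lineage of the neural crest. Its adrenergic cells are held in an immature state by MYCN and a circuit of transcription factors (HAND2, GATA3 and others). They can be driven towards neuron-like cells with longer processes, in which signals through bone morphogenetic protein (BMP), RET and neurotrophin receptors take part.

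The 8 libraries held 13894675 to 16285849 fragments in genes, of which mitochondrial genes took 4.80 to 6.04% and ERCC spike-ins, synthetic RNAs added to a sample, 0.265 to 0.364%. Levels are given as CPM, each gene's fragments scaled to a common library size with TMM factors, which set the typical gene to no change. Values are listed as replicate 1 and replicate 2 (n = 2 per group). A change is the log2 ratio of 6 over 3 days from edgeR's quasi-likelihood fit of all 14230 genes that passed a filter on low counts, with line as a covariate and Benjamini-Hochberg adjusted p-values. Each change or difference of changes is printed on this log2 scale ± its SE. A gene is called, and said to have risen or fallen, where its adjusted p is below 0.05. Coordinates are those of the annotation for GRCh38 (hg38). The inhibitor does not target the messenger of METTL3, which measured 49.9 and 56.9 CPM in Kelly at 3 days and 55.3 and 69.1 at 6 days, and 55.6 and 62.3 and then 60.9 and 60.2 CPM in NGP. That is a change of 0.13 ± 0.10 (adjusted p = 0.57), and the libraries carry no direct check of the treatment label. All 9 adrenergic marker genes were at 10 CPM or more in Kelly and 8 of 9 in NGP, where TH, the first enzyme of catecholamine synthesis, was near 0. Of the Schwann cell and endothelial markers none reached a mean of 10 CPM in any group. Summed, the Schwann cell markers gave 1.16 to 2.68 CPM at 3 days and 4.30 to 4.97 at 6 days. The endothelial ones gave 3.49 to 8.13 CPM over all days and the immune ones 2.73 to 12.5 CPM, of which CD74 held 2.11 to 12.5 and LYZ up to 2.06, with PTPRC at 0 in all 8 libraries. The fibroblast markers summed to 94.2 to 197 CPM, from COL1A1, COL3A1, PDGFRB and THY1, with DCN at or below 0.062 CPM and LUM at or below 3.66.

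Between 3 and 6 days of STM2457, 784 of 14230 genes (5.51%) changed in both lines fitted together, 429 of them higher (3.01%) and 355 lower (2.49%). The changes were mostly small: the median size among called genes was 0.43 on the log2 scale, and 98 genes exceeded 2-fold. Fitted within each line, 735 genes were called in Kelly (5.17%, with 391 or 2.75% higher and 344 or 2.42% lower) and 951 in NGP (6.68%, with 489 or 3.44% higher and 462 or 3.25% lower). The lines shared 238 called genes, 32.4% of the Kelly and 25.0% of the NGP calls, of which 220 moved in the same direction and 18 in opposite directions. The change itself differed between NGP and Kelly for 376 genes (2.64%), 152 more positive in NGP (1.07%) and 224 more negative (1.57%). Leaving out 1 library gave 508 to 709 calls in both lines together (lowest without NGP at 3 days replicate 2) and 456 to 819 in Kelly (lowest without Kelly at 3 days replicate 1). It gave 582 to 1165 in NGP (lowest without NGP at 3 days replicate 1, then 603 without replicate 2) and 233 to 390 line differences (lowest without NGP at 3 days replicate 1). With the mean of the lines' own changes in place of a common change, 1499 genes were called, since the common fit counts a difference between the lines as spread. All of these changes are relative to the other transcripts of a library. Scaled to the ERCC spike-ins instead, the median of all genes was -0.29, the called genes were 5048 with 164 of them higher, and all 23 gene lists had a median below 0. The labels do not say when the spike-ins were added, and directions below hold under TMM scaling.

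Among the largest shared falls were those of the ID genes and SMAD6, transcripts that BMP signalling switches on in most cells. ID1, ID2 and ID3 encode helix-loop-helix proteins without a DNA-binding domain, which hold back neurogenic factors. SMAD6 and SMAD7 encode inhibitors that feed back on the same pathway. ID2 (chr2:8678845-8684461) went from 80.9 and 84.0 CPM at 3 days to 27.7 and 22.7 at 6 days in Kelly, and from 132 and 131 to 23.8 and 24.1 in NGP. Every 6-day library lay far below every 3-day library, and the change was -2.09 ± 0.13 (adjusted p = 2.6e-08), a 4.24-fold fall. Genes named by size had been required to show no overlap of days within a line. SMAD6 (chr15:66702236-66782849) went from 42.7 and 49.1 to 13.6 and 9.28 CPM in Kelly and from 79.3 and 75.5 to 21.5 and 22.4 in NGP, a change of -1.91 ± 0.13 (adjusted p = 7.9e-08). A difference between the lines' changes was not called for SMAD6 (0.19 ± 0.26, adjusted p = 0.85).

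ID3 (chr1:23557926-23559501) measured 43.1 and 49.8 CPM and then 24.4 and 16.3 in Kelly, and 36.0 and 27.9 and then 6.89 and 4.97 in NGP. ID1 (chr20:31605283-31606515) measured 10.7 and 8.01 CPM and then 3.82 and 5.82 in Kelly, and 25.9 and 24.5 and then 4.34 and 2.13 in NGP. Neither gene's days overlapped in either line, which naming by size required. The changes over both lines were -1.76 ± 0.23 for ID3 (adjusted p = 1.4e-04) and -1.95 ± 0.37 for ID1 (adjusted p = 0.0036). The fall was steeper in NGP for all 3 ID genes. The difference of the changes was -0.75 ± 0.19 for ID2 (adjusted p = 0.027), -1.23 ± 0.34 for ID3 (adjusted p = 0.043) and -1.99 ± 0.52 for ID1 (adjusted p = 0.034). ID1 did not pass the test in Kelly alone (-0.96 ± 0.37, adjusted p = 0.15). These line differences were lost in 7, 5 and 5 of 8 fits without 1 library, with adjusted p up to 0.14 (without Kelly at 6 days replicate 1), 0.23 and 0.13 (both without NGP at 3 days replicate 1). Of 20 tested genes on the list of ID and Notch pathway genes, 5 fell (the 3 ID genes, SMAD6 and SMAD7) and 2 rose, beside 2.49% and 3.01% of all genes. The list's median was 0.05 against 0.01 for all genes. The genes that rose were HES6, a Hes-family protein that favours neurogenesis (0.80 ± 0.14, adjusted p = 0.0014), and JAG2, a Notch ligand (0.55 ± 0.13, adjusted p = 0.016). The calls of SMAD7 (-0.52 ± 0.14, adjusted p = 0.030) and JAG2 were lost in 5 and 3 of 8 fits without 1 library, with adjusted p up to 0.12 (without Kelly at 3 days replicate 2) and 0.069 (without NGP at 3 days replicate 1).

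**Figure D1:**
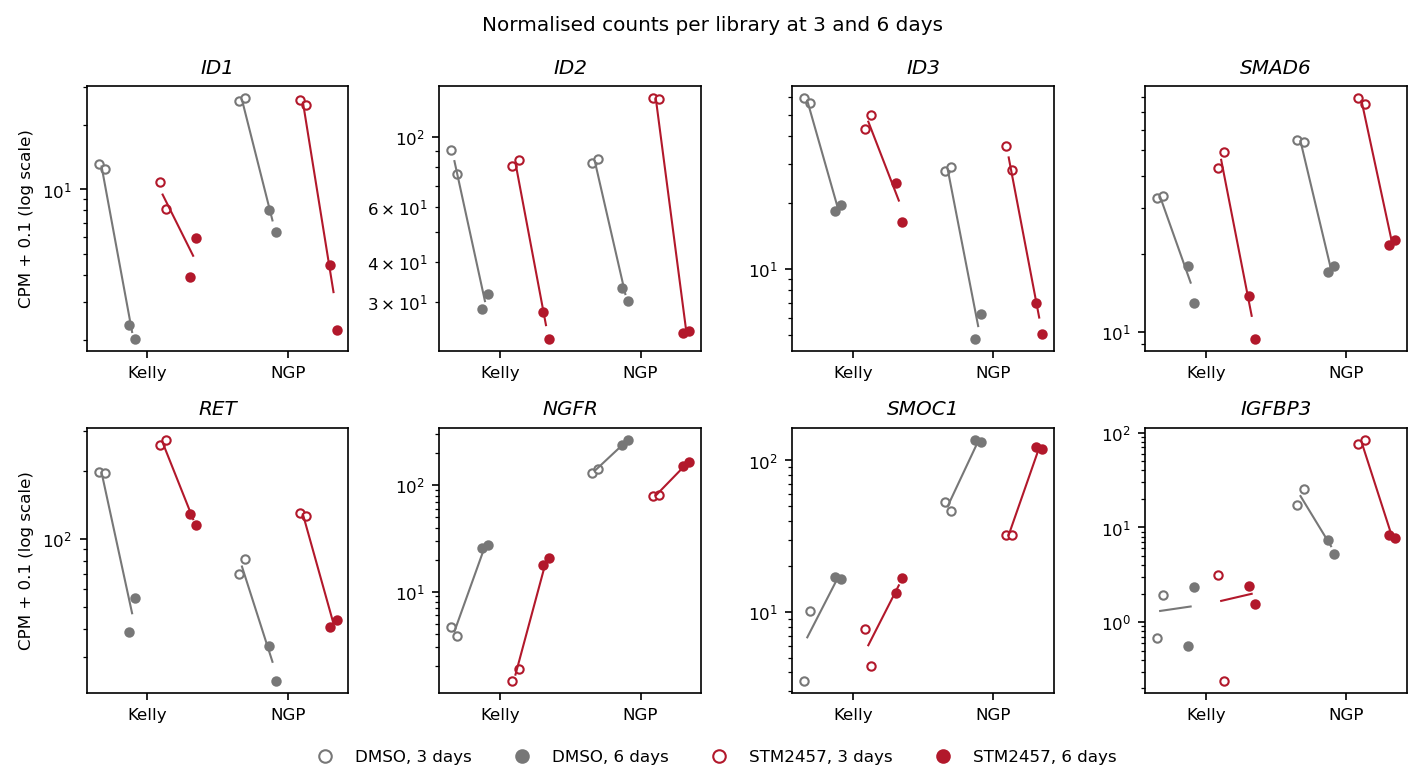
CPM plus 0.1 on a log axis for 8 genes, 1 point per library, open at 3 days and filled at 6 days, in STM2457 (red) and DMSO (grey), with lines joining group means. ID1, ID2, ID3, SMAD6 and RET are lower at 6 days in both lines and both treatments, NGFR and SMOC1 are higher, and IGFBP3 under STM2457 falls in NGP, from 76.1 and 83.7 to 8.13 and 7.67 CPM.

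Of 9 tested neurotrophic receptor genes, 2 fell, RET and GFRA2, and 1 rose, NGFR, beside 2.49% and 3.01% of all genes. RET, the receptor tyrosine kinase that signals for GDNF-family ligands, went from 260.4 and 274 CPM to 129 and 116 in Kelly and from 129.8 and 126 to 40.7 and 43.4 in NGP (-1.36 ± 0.09, adjusted p = 4.5e-08). GFRA2, a co-receptor that presents neurturin to RET, went from 101 and 118 to 60.4 and 63.2 CPM in Kelly and from 104 and 86.8 to 37.6 and 38.8 in NGP (-1.07 ± 0.11, adjusted p = 1.3e-05). DOK4, an adaptor known to bind activated RET, went from 413 and 422 to 182 and 182 CPM in Kelly and from 309.8 and 344 to 107 and 103 in NGP (-1.41 ± 0.08, adjusted p = 8.5e-09). All 3 were lower at 6 days in every library of both lines, which naming by size required of DOK4. The noradrenaline transporter SLC6A2 went from 142 and 132 to 87.8 and 79.9 CPM in Kelly and from 90.6 and 83.1 to 31.8 and 22.3 in NGP (-1.17 ± 0.15, adjusted p = 1.5e-04). It was the only 1 of 8 tested catecholamine genes that passed the test in both lines together. Its fall was larger in NGP, with a line difference called (adjusted p = 0.0033). Within the lines, 0 of the 8 rose and 1 fell in Kelly, beside 2.75% and 2.42% of all genes. In NGP 1 rose and 2 fell, beside 3.44% and 3.25%. A line difference was called for 1 as more positive in NGP and for 2 as more negative, beside 1.07% and 1.57%.

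Among 14 adrenergic transcription factors, 4 fell and 1 rose, beside 2.49% and 3.01% of all genes. In Kelly 3 rose and 4 fell, beside 2.75% and 2.42%, and in NGP 2 rose and 8 fell, beside 3.44% and 3.25%. A line difference was called for 3 as more positive in NGP and for 4 as more negative, beside 1.07% and 1.57%. The DMSO counts of this list are given below, with the comparison to DMSO. HAND1 went from 333 and 329 to 134 and 143 CPM in Kelly and from 297 and 345 to 226 and 212 in NGP (-0.90 ± 0.10, adjusted p = 4.6e-05). Its fall was larger in Kelly, with a line difference called in the main fit (adjusted p = 2.5e-04) and in each of 8 fits without 1 library. Smaller falls were measured for TBX2 at -0.59 ± 0.07 (adjusted p = 3.5e-05) and GATA2 at -0.49 ± 0.06 (adjusted p = 8.9e-05). INSM1, a zinc finger protein of developing neuroendocrine cells, was higher in both lines (0.56 ± 0.09, adjusted p = 7.4e-04). TBX3, a T-box relative of TBX2 that was not on the list, went from 243 and 243 to 98.6 and 115 CPM in Kelly and from 121 and 122 to 40.8 and 42.3 in NGP (-1.36 ± 0.08, adjusted p = 2.1e-08). GATA3, a zinc finger factor of the circuit, fell in NGP (-0.42 ± 0.06, adjusted p = 1.5e-05) and measured 0.08 ± 0.06 in Kelly, a difference of -0.50 ± 0.08 (adjusted p = 5.4e-04). TFAP2B, HAND2 and MYCN on this list went apart in the lines and are described with the line differences.

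The largest of the 10 shared falls named by size was that of SAMD11, a sterile alpha motif protein. It went from 47.5 and 40.1 to 8.54 and 9.03 CPM in Kelly and from 102 and 126 to 22.6 and 15.4 in NGP (-2.46 ± 0.14, adjusted p = 8.5e-09). Its exons share 9.08% of their bases with another gene. COL6A6, a collagen VI chain, went from 87.8 and 84.6 to 39.8 and 50.9 CPM in Kelly and from 116 and 109 to 21.3 and 20.02 in NGP (-1.66 ± 0.21, adjusted p = 1.2e-04). ISLR2, a leucine-rich repeat protein of axons known to interact with RET, went from 26.0 and 29.0 to 11.6 and 12.9 CPM in Kelly and from 73.6 and 72.1 to 17.1 and 13.8 in NGP (-1.71 ± 0.19, adjusted p = 2.1e-05). Both fell further in NGP than in Kelly, by -1.52 ± 0.20 (adjusted p = 2.3e-05) and -1.07 ± 0.27 (adjusted p = 0.027). The last of the 10 falls, P2RY6, a receptor for uridine diphosphate, measured 28.1 and 31.7 CPM and then 13.6 and 13.8 in Kelly and at most 1.13 CPM in NGP (-1.41 ± 0.36, adjusted p = 0.025). Its call was lost without Kelly at 3 days replicate 2 (adjusted p = 0.069), and in Kelly alone it did not pass the test (adjusted p = 0.060).

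Genes that rose in both lines included receptors, matrix proteins and a synaptic transcript. NGFR (chr17:49495293-49515008), the low-affinity neurotrophin receptor p75, went from 1.33 and 1.78 CPM to 17.7 and 20.5 in Kelly and from 79.3 and 80.8 to 152 and 164 in NGP. The days did not overlap in either line, which naming by size required, and the common change was 1.76 ± 0.29 (adjusted p = 0.0013). The rise was steeper in Kelly (3.61 ± 0.21) than in NGP (0.98 ± 0.13), a difference of -2.63 ± 0.25 (adjusted p = 1.5e-07). SMOC1, a secreted calcium-binding matrix protein known to oppose BMP signalling, went from 7.57 and 4.31 to 13.2 and 16.6 CPM in Kelly and from 32.0 and 32.2 to 123 and 119 in NGP (1.67 ± 0.16, adjusted p = 5.8e-06). ARC, an activity-regulated synaptic gene, went from 7.78 and 7.80 to 26.2 and 13.9 CPM in Kelly and from 18.9 and 11.6 to 42.4 and 38.6 in NGP (1.39 ± 0.21, adjusted p = 5.2e-04). FSTL4, a follistatin-like secreted protein, had the largest of the 10 rises named by size. It went from 1.89 and 1.92 to 6.33 and 9.82 CPM in Kelly and from 6.23 and 10.8 to 33.3 and 30.9 in NGP (1.99 ± 0.24, adjusted p = 8.5e-05).

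EGFLAM, the matrix protein pikachurin that binds dystroglycan at synapses, went from 22.5 and 30.4 to 75.9 and 92.4 CPM in NGP and from 2.59 and 3.01 to 6.69 and 4.31 in Kelly (1.41 ± 0.19, adjusted p = 2.0e-04). FMNL1, a formin that assembles actin filaments, rose by 1.58 ± 0.26, SIAH3 by 1.35 ± 0.26, SYNE3, a nesprin of the nuclear envelope, by 1.32 ± 0.24 and TMC6 by 1.32 ± 0.23, from levels of 2.40 to 9.10 CPM at 3 days. BTBD17 was at or below 1.02 CPM in Kelly and rose in NGP from 10.5 and 14.2 to 31.0 and 25.9 CPM. Its call was lost in 2 of 8 fits without 1 library (adjusted p up to 0.073, without NGP at 3 days replicate 1).

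Neuronal genes moved in both directions. Of 23 tested genes on the neuronal and secretory list, 3 rose and 3 fell, beside 3.01% and 2.49% of all genes, with a median of -0.04. In Kelly 3 rose and 3 fell, beside 2.75% and 2.42%, and in NGP 3 rose and 7 fell, beside 3.44% and 3.25%. A line difference was called for 1 as more positive in NGP and for 4 as more negative, beside 1.07% and 1.57%. CHGB, a granin of secretory granules, went from 465 and 502 to 676 and 704 CPM in Kelly and from 410.3 and 411 to 602 and 569 in NGP (0.51 ± 0.05, adjusted p = 4.5e-06). The change was 0.51 ± 0.05 in Kelly and 0.51 ± 0.06 in NGP. STMN2, a microtubule regulator of growth cones, rose by 0.70 ± 0.09 (adjusted p = 1.3e-04) and MAPT, which encodes tau, by 0.93 ± 0.15 (adjusted p = 0.0013). The changes of STMN2 and MAPT differed between the lines (adjusted p = 0.016 and 0.030). These line differences were lost in 2 and 5 of 8 fits without 1 library. NEFH, the heavy neurofilament, went from 856 and 963 to 573 and 603 CPM in Kelly and from 695 and 667 to 537 and 512 in NGP (-0.50 ± 0.06, adjusted p = 4.4e-05). ELAVL4, a neuronal RNA-binding protein, and MAP2, a dendritic microtubule protein, also fell, with changes of -0.70 ± 0.09 and -0.40 ± 0.06 (adjusted p = 2.0e-04 and 3.1e-04).

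Axon guidance genes split in the same way, with 5 rising and 6 falling of 33 tested, beside 3.01% and 2.49% of all genes. UNC5B, a netrin receptor that repels axons, went from 242 and 231 to 141 and 132 CPM in Kelly and from 213 and 225 to 75.9 and 90.2 in NGP (-1.09 ± 0.10, adjusted p = 3.8e-06). ROBO2, a receptor for SLIT proteins, went from 96.1 and 101 to 156 and 149 CPM in Kelly and from 80.4 and 87.9 to 153 and 136 in NGP (0.70 ± 0.08, adjusted p = 1.8e-05). The gene of its ligand SLIT3 fell (-0.68 ± 0.09, adjusted p = 1.6e-04), with a difference between the lines of -0.63 ± 0.08 (adjusted p = 2.5e-05). NRP1, a semaphorin co-receptor, and the semaphorin receptor PLXNA4 fell, with changes of -0.63 ± 0.08 and -1.14 ± 0.17 (adjusted p = 1.4e-04 and 4.7e-04). Of the 11 calls, 8 held in each of the 8 fits without 1 library, and those of EFNB2, EPHA7 and UNC5A were lost in 3, 6 and 6 of them (adjusted p up to 0.14, UNC5A without Kelly at 6 days replicate 1).

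Matrix and adhesion genes gave different counts in the lines. Of 22 tested extracellular matrix and adhesion genes, edgeR called 5 higher and 0 lower in both lines together, beside 3.01% and 2.49% of all genes, where DESeq2 called 6 and 0 and limma-voom 5 and 1. In Kelly 9 rose, beside 2.75% of all genes, and in NGP 1 rose and 5 fell, beside 3.44% and 3.25%. The counts were 4 to 9 rises in Kelly and 1 to 5 falls in NGP when 1 library was left out, and a difference between the lines was called for 3 of the 22, all more negative in NGP, beside 1.57% of all genes. COL1A1, a fibrillar collagen chain and the fibroblast marker named above, went from 6.17 and 6.71 to 24.5 and 21.0 CPM in Kelly. In NGP it measured 44.5 and 49.3 and then 55.1 and 50.5, and the lines' changes differed by -1.65 ± 0.27 (adjusted p = 5.1e-04). Its call in both lines together was lost in 3 of 8 fits without 1 library (adjusted p up to 0.11, without Kelly at 3 days replicate 2). The fibroblast list as a whole summed to 94.2 and 97.0 CPM at 3 days and to 136 and 157 at 6 days in Kelly, and to 189 and 197 and then 171 and 183 in NGP. The part of other cells in these collagen values was not tested. COL6A2, a collagen VI chain, rose in both, from 31.9 and 39.0 to 88.3 and 63.5 CPM in Kelly and from 74.1 and 86.8 to 114 and 128 in NGP (0.83 ± 0.13, adjusted p = 5.5e-04). COL5A1 rose by 1.00 ± 0.19 (adjusted p = 0.0032). The calls of TIMP3, a metalloproteinase inhibitor (1.47 ± 0.35, adjusted p = 0.018), and of the intermediate filament gene VIM (0.46 ± 0.11, adjusted p = 0.021) were each lost in 2 of 8 fits without 1 library. The adjusted p reached 0.053 (without Kelly at 6 days replicate 2) and 0.080 (without NGP at 3 days replicate 1).

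Cytosolic ribosomal protein genes rose by small amounts relative to the other transcripts, a direction that turned when values were scaled to the ERCC spike-ins. Of 76 tested, edgeR called 44 higher in both lines together and DESeq2 and limma-voom 53 each, none of the 3 tools calling any lower, beside 3.01% of all genes higher by edgeR, with a median change of 0.22. The rise was mostly that of NGP, where 69 of 76 passed the test (median 0.36), against 16 of 76 in Kelly (median 0.10). The change was more positive in NGP for 29 of them and more negative for none, beside 1.07% of all genes. Without 1 library each, 25 to 52 rose in both lines together (lowest without NGP at 3 days replicate 1), and 59 to 70 in NGP. In Kelly 8 to 18 rose (lowest without Kelly at 3 days replicate 1). Between 15 and 28 differed between the lines (lowest without NGP at 3 days replicate 1). RPS7 went from 519.9 and 529.8 to 683 and 634 CPM in Kelly and from 708 and 674 to 922 and 969 in NGP (0.39 ± 0.05, adjusted p = 8.9e-05). RPL5 went from 1324 and 1343 to 1616 and 1589.5 CPM in Kelly and from 1409 and 1355 to 1979 and 1923 in NGP (0.38 ± 0.05, adjusted p = 7.7e-05). RPS12 measured 404 and 395 CPM and then 381 and 393 in Kelly, with adjusted p = 0.78, and rose in NGP from 291 and 316 to 411 and 400.0 CPM, a difference of 0.46 ± 0.09 (adjusted p = 0.0022).

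In DMSO 56 of the 76 rose (median 0.31), beside 5.44% of all genes, with medians of 0.24 in Kelly and 0.38 in NGP. The difference between treatments was called for none of the 76 by edgeR or limma-voom and for 1, as more negative under STM2457, by DESeq2. With ERCC scaling the DMSO median was 0.38, and the difference was called for 44, all more negative under STM2457.

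Under ERCC scaling the STM2457 median was -0.08 in both lines together, -0.19 in Kelly with 41 of 76 lower, and 0.05 in NGP with 6 higher and 1 lower. The members RPS10 (-0.29 ± 0.33) and RPL17 (0.01 ± 0.18), whose changes were low for the group, share 40.3% and 24.8% of their exon bases with read-through or copy genes, and their counts are uncertain. Ribosomal protein genes also have many processed copies in the genome, so that single values may carry reads of a copy. EIF4B, a translation initiation factor whose messenger shares the class of start described next, went from 759 and 763 to 849 and 826 CPM in Kelly and from 856 and 866 to 1072 and 1107 in NGP (0.24 ± 0.05, adjusted p = 0.0053).

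**Figure D2:**
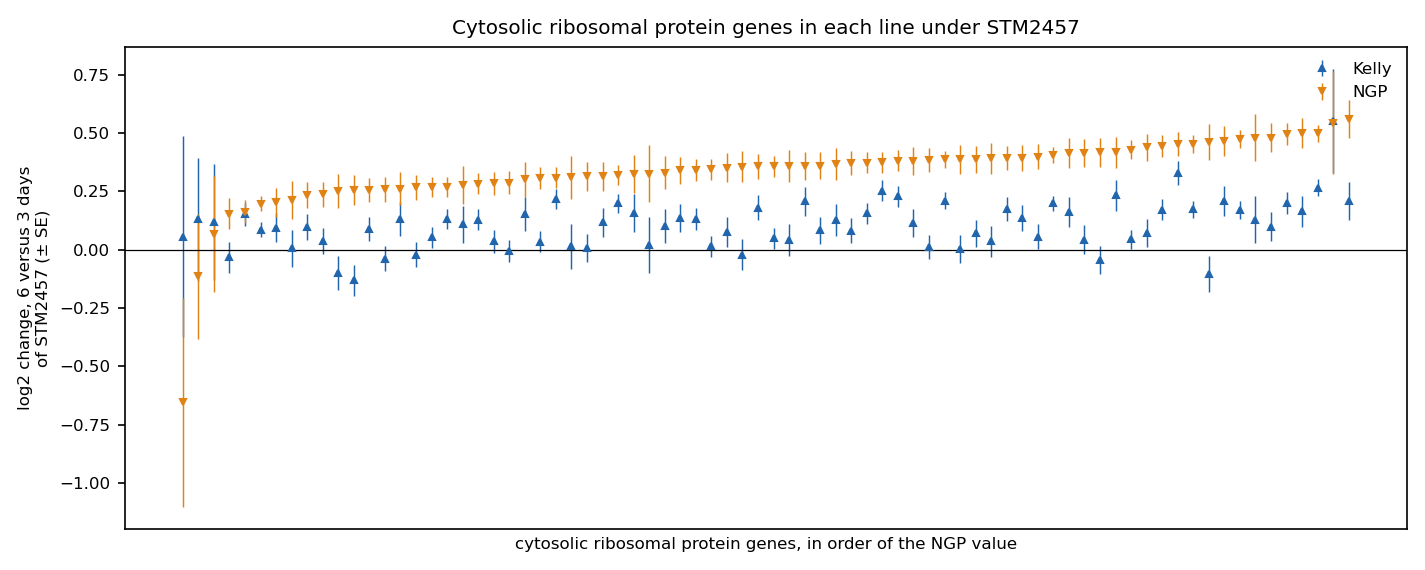
The log2 change (6 versus 3 days of STM2457, TMM scaling) with its SE for each of 76 cytosolic ribosomal protein genes, in Kelly (blue) and NGP (orange), ordered by the NGP value. NGP lies above Kelly for most genes, with medians of 0.36 and 0.10. Under scaling to the ERCC spike-ins the medians become 0.05 and -0.19.

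Ribosomal protein messengers are known for starting with a run of pyrimidines, through which their translation follows growth signals. Windows of 300 bases around the annotated start (250 before, 50 after) from RefSeq, build GRCh38.p14, matched 60 of the 76 genes by symbol. Of these, 47 (78.3%) held 8 or more C or T in a row between 10 bases before and 20 after the start, against 12.8% of the windows of 11277 tested genes. The search for this run was not planned and was added after the values were seen. The run, in capitals, and 8 bases on each side are shown for 3 genes that rose, because they carry the start that the group shares. RPS7 lies at chr2:3575244-3575270, plus strand, RPL13A at chr19:49487593-49487622, plus strand and RPS3 at chr11:75399507-75399536, plus strand.
RPS7: ggtttccgCCCTCCTCCTCgcgctgtt
RPL13A: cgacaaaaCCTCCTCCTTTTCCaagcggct
RPS3: gcgagccaCTTCCTTTCCTTTCagcggagc
A match describes the letters only. The changes were 0.39 ± 0.05 for RPS7, 0.30 ± 0.04 for RPL13A and 0.31 ± 0.05 for RPS3 (SE), with adjusted p = 8.9e-05, 2.9e-04 and 0.0010.

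For some genes the size or direction of the change differed between the lines. IGFBP3, a secreted protein that binds insulin-like growth factors, went from 76.1 and 83.7 CPM to 8.13 and 7.67 in NGP, a 10.1-fold fall. In Kelly, where it was hardly expressed, it measured 3.02 and 0.137 and then 2.33 and 1.46 CPM. The difference of the changes was -3.61 ± 0.64 (adjusted p = 0.0011), and it was not called by DESeq2 (adjusted p = 0.22). REST, the repressor of neuronal genes in non-neuronal cells, fell in NGP from 31.7 and 32.5 to 8.68 and 12.1 CPM. In Kelly it measured 11.4 and 12.8 and then 19.3 and 19.8, with no overlap between days in either line. Its change differed by -2.32 ± 0.36 (adjusted p = 2.3e-04), while the Kelly rise alone had adjusted p = 0.12. LBH, a transcriptional regulator of the limb bud and heart, rose in Kelly from 3.72 and 5.27 to 25.6 and 17.2 CPM. In NGP it measured 52.7 and 57.4 and then 57.6 and 48.3, with overlapping days (-2.30 ± 0.31, adjusted p = 3.7e-05).

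RAPGEF5, an exchange factor for Rap proteins, rose in NGP from 57.7 and 54.8 to 150.2 and 131 CPM and measured 55.2 and 49.7 and then 48.2 and 47.8 in Kelly (1.45 ± 0.18, adjusted p = 8.7e-06). SYNPO, an actin-associated protein of dendritic spines, rose in NGP from 3.29 and 7.96 to 14.5 and 19.7 CPM and measured 26.4 and 30.9 and then 19.7 and 23.0 in Kelly (2.03 ± 0.43, adjusted p = 0.0064). NBEAL2 and NANOS1 rose in NGP as well (1.41 ± 0.21 and 0.96 ± 0.20) and not in Kelly (0.02 ± 0.20 and -0.43 ± 0.20), with differences of 1.39 ± 0.29 and 1.39 ± 0.28 (adjusted p = 0.0059 and 0.0046). ACE, the angiotensin-converting enzyme, fell in NGP from 15.8 and 17.3 to 3.85 and 4.54 CPM against 43.8 and 37.7 and then 32.5 and 34.0 in Kelly (-1.69 ± 0.32, adjusted p = 0.0023). Of its exon bases 23.9% overlap another gene. The differences of FOXC1 (-1.74 ± 0.42, adjusted p = 0.021) and ARL2 (1.52 ± 0.40, adjusted p = 0.035) lost their calls in 4 and 5 of 8 fits without 1 library. The adjusted p reached 0.14 without Kelly at 6 days replicate 1 and 0.13 without NGP at 3 days replicate 2. These 10 genes, NGFR among them, were chosen after their values were seen, from 301 genes with a called difference whose mean reached 10 CPM in each line.

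Of the 12 genes with the largest fitted line differences, 11 had a group with no fragment in either library. RGS14 had 0 fragments in both NGP libraries at 3 days and 32 and 11 at 6 days, against 163 and 178 and then 132 and 196 in Kelly. CACNA1H, a T-type calcium channel, had 14 and 10 fragments in Kelly at 3 days and 0 in both libraries at 6 days, against 230 and 235 and then 456 and 323 in NGP. TRIM58 had 15 and 13 fragments in NGP at 3 days and 0 at 6 days, and PCSK1, a prohormone convertase, 0 in Kelly at 3 days and 13 and 14 at 6 days. These counts lie near the limit of detection, so no fold is given for them. DESeq2 called 9 of the 11 and limma-voom none.

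Among the 18 genes called in opposite directions in the lines were 2 transcription factors of the adrenergic circuit. TFAP2B, a neural crest factor, rose in Kelly from 370.1 and 342 to 476 and 441 CPM (0.37 ± 0.07). It fell in NGP from 170.4 and 175 to 91.4 and 100.1 (-0.85 ± 0.07), a difference of -1.22 ± 0.10 (adjusted p = 3.3e-08). HAND2 rose in Kelly from 826 and 835 to 1137 and 1123 CPM and fell in NGP from 1442 and 1421 to 1319 and 1286, a difference of -0.58 ± 0.06 (adjusted p = 1.5e-07). EYA1, a transcriptional co-activator and phosphatase, rose from 215 and 180.4 to 289.8 and 294 CPM in Kelly and fell from 64.3 and 66.5 to 42.6 and 40.0 in NGP (-1.23 ± 0.14, adjusted p = 1.9e-06). FN1, the matrix protein fibronectin, rose from 83.9 and 88.1 to 112 and 111 CPM in Kelly and fell from 128 and 114 to 76.8 and 79.0 in NGP (-1.01 ± 0.15, adjusted p = 1.5e-04). AOPEP, an aminopeptidase, did likewise (-1.10 ± 0.18, adjusted p = 4.0e-04). The splicing regulator MBNL3 (1.17 ± 0.16, adjusted p = 4.7e-05) and the monocarboxylate transporter SLC16A7 (0.86 ± 0.15, adjusted p = 7.7e-04) fell in Kelly and rose in NGP. For HAND2 the NGP fall was small (-0.14 ± 0.04, adjusted p = 0.034).

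MYCN, the amplified driver gene, measured 5709 and 5399.8 CPM at 3 days and 5271 and 5046 at 6 days in Kelly and rose in NGP from 4837 and 5565 to 7492 and 8215. The change was -0.11 ± 0.04 in Kelly (adjusted p = 0.16) and 0.59 ± 0.04 in NGP (adjusted p = 1.4e-10), a difference of 0.70 ± 0.06 (adjusted p = 3.3e-08). The change common to both did not pass the test (0.24 ± 0.09, adjusted p = 0.15). ALK, a receptor tyrosine kinase often mutated in neuroblastoma, fell in NGP from 187 and 188 to 116 and 123 CPM and measured 136 and 127 and then 150.4 and 138 in Kelly (-0.79 ± 0.13, adjusted p = 4.0e-04). GFRA1, the co-receptor for GDNF, rose in NGP (0.49 ± 0.10) and measured -0.29 ± 0.10 in Kelly (adjusted p = 0.082), a difference of 0.78 ± 0.14 (adjusted p = 0.0012). DCX, a microtubule protein of migrating neurons, rose in Kelly from 42.6 and 28.3 to 75.4 and 78.3 CPM against 333 and 323 and then 254 and 277 in NGP (-1.42 ± 0.16, adjusted p = 1.9e-06). NRP2, a semaphorin receptor, rose in Kelly from 119 and 119 to 228 and 225 CPM against 420.5 and 428 and then 413 and 400.2 in NGP (-0.99 ± 0.09, adjusted p = 9.0e-08).

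**Figure D3:**
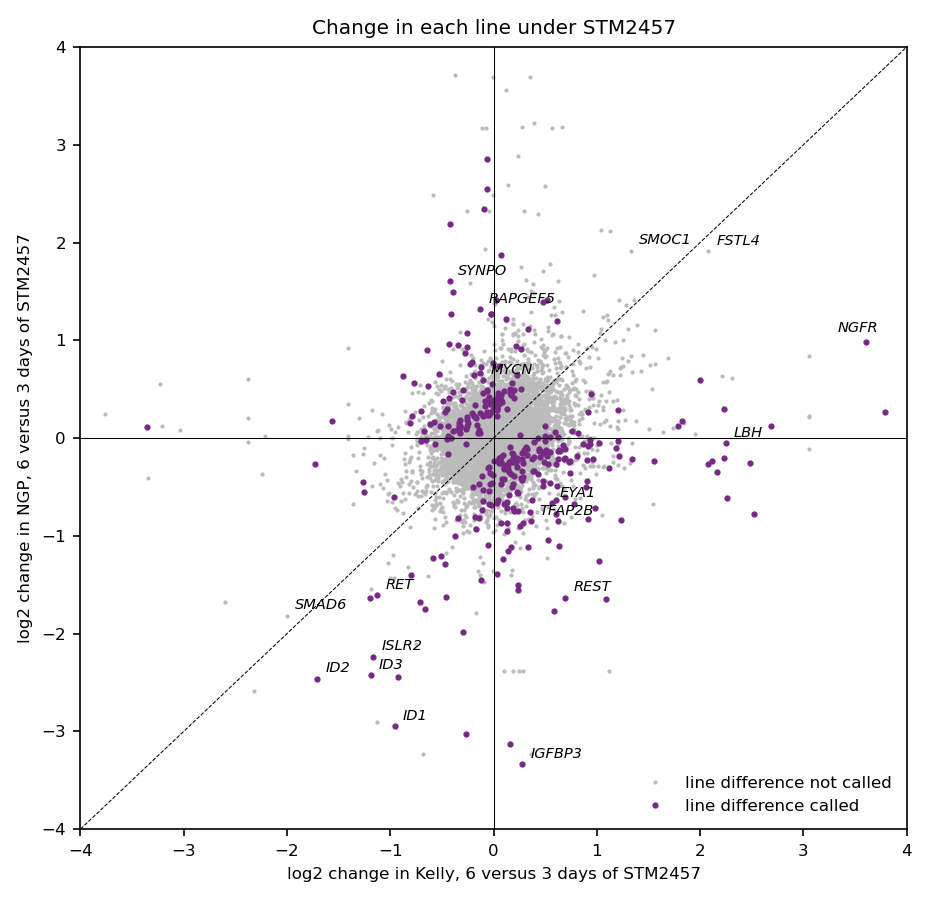
The log2 change (6 versus 3 days of STM2457) in NGP against that in Kelly for 9739 genes whose mean over the 8 libraries was 10 CPM or more, another 25 lying outside the axes. Purple points are the genes whose change differed between the lines, and the dashed line marks equal changes. ID1, ID2, ID3 and ISLR2 lie below it, with larger falls in NGP, NGFR lies far to the right, and TFAP2B and EYA1 lie in the quadrant of a rise in Kelly and a fall in NGP.

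More genes were called between the days in DMSO than under STM2457 with TMM scaling, an order that turned with ERCC scaling (532 against 5048). In DMSO, 1596 of 14219 genes were called between 3 and 6 days (11.2%), 774 higher (5.44%) and 822 lower (5.78%), with a median size of 0.51. Of the genes called under STM2457 and in DMSO, from separate libraries, 446 were common to both, 56.9% of the STM2457 and 27.9% of the DMSO calls, and all 446 had the same direction. The change differed between treatments for 120 of 14840 genes tested in 16 libraries (0.809%), 96 of them more positive under STM2457 (0.647%) and 24 more negative (0.162%). Under ERCC scaling this split turned, to 955 called genes with 1 more positive, as the median of all differences moved from -0.01 to -0.38.

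The shared changes of ID2, SMAD6, RET, NGFR and SMOC1 were also present in DMSO. ID2 went from 90.8 and 76.3 CPM to 28.3 and 31.7 in Kelly and from 82.3 and 84.7 to 33.1 and 30.1 in NGP without inhibitor, and the difference between treatments was -0.65 ± 0.18 (adjusted p = 0.099). For SMAD6 the DMSO change was -1.37 ± 0.16 and the difference -0.54 ± 0.21 (adjusted p = 0.35). RET went from 197 and 196 to 38.7 and 54.8 CPM in Kelly and from 69.7 and 81.0 to 33.6 and 23.3 in NGP in DMSO, a difference of 0.39 ± 0.19 (adjusted p = 0.52). NGFR went from 4.54 and 3.70 to 25.7 and 27.3 CPM and from 131 and 142 to 241 and 266 (0.20 ± 0.45, adjusted p = 0.94 for the difference). SMOC1 went from 3.39 and 10.0 to 17.0 and 16.4 CPM and from 53.1 and 46.4 to 136 and 131 (0.28 ± 0.28, adjusted p = 0.82). None of these 5 differences passed the test, which does not show that the changes were equal. In DMSO, beside 5.44% of all genes higher and 5.78% lower, 2 rose and 5 fell of 20 ID and Notch genes. The counts were 1 and 3 of 9 neurotrophic receptors, 1 and 4 of 14 adrenergic factors and 3 and 6 of 23 neuronal genes. They were 9 and 5 of 33 axon guidance genes and 7 and 0 of 22 matrix genes. The treatment difference was called for 0 ID and Notch, neurotrophic or adrenergic genes and 1 each of the neuronal, axon guidance and matrix lists. The lines also went apart in DMSO, with no test made of it. TFAP2B went from 435 and 389 to 594 and 582 CPM in Kelly and from 107 and 120.5 to 63.9 and 65.5 in NGP. HAND2 went from 969 and 963 to 1353 and 1328 CPM in Kelly and from 1409.8 and 1388 to 976 and 1057 in NGP. MYCN went from 5726 and 6228 to 4943 and 4699.9 in Kelly and from 6251 and 6123 to 7272 and 9574 in NGP. LBH in Kelly measured 6.01 and 5.34 and then 6.37 and 10.7 CPM in DMSO, and IGFBP3 in NGP 17.3 and 25.4 and then 7.35 and 5.14, smaller ratios than under STM2457 that were not tested within a line.

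Cell cycle genes fell less under STM2457 than in DMSO, a difference seen with TMM and not called with ERCC scaling. Of 20 tested G2 and mitosis genes, all 20 fell in DMSO (median -0.63), beside 5.78% of all genes, and 4 fell under STM2457 (median -0.08). The difference was called for 13, all more positive under STM2457, beside 0.647% of all genes, and for 11 to 16 without 1 library. Within the lines the DMSO median was -0.39 in Kelly and -0.90 in NGP, with no test of that split. AURKA, the mitotic kinase that stabilises MYCN protein, measured 91.8 and 88.2 CPM and then 104 and 101 in Kelly and 58.6 and 55.7 and then 50.7 and 55.8 in NGP under STM2457. In DMSO it measured 93.3 and 109 CPM and then 67.0 and 73.8 in Kelly and 70.8 and 67.3 and then 26.7 and 27.2 in NGP. At 6 days every DMSO library lay below every STM2457 library of its line, and the difference of the changes was 0.97 ± 0.18 (adjusted p = 0.0076). CCNA2, cyclin A2, measured 129.6 and 127 and then 122 and 119 CPM in NGP under STM2457 and 171 and 149 and then 90.9 and 79.5 in DMSO (0.70 ± 0.11, adjusted p = 0.0028). TPX2 (-0.22 ± 0.05), MKI67 (-0.18 ± 0.05), UBE2C (-0.37 ± 0.10) and KIF20A (-0.26 ± 0.07) were the 4 that fell under STM2457. Their calls were lost in 2, 4, 6 and 6 of 8 fits without 1 library (adjusted p up to 0.11, UBE2C without Kelly at 3 days replicate 1), and none of the list was called without NGP at 3 days replicate 2.

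Of 22 DNA replication and S phase genes, 18 fell in DMSO, beside 5.78% of all genes (median -0.48) and 4 under STM2457, beside 2.49% (median -0.14). The difference was called for 5, all more positive under STM2457, beside 0.647% of all genes. Within the lines the DMSO median was -0.63 in Kelly and -0.36 in NGP, with no test of that split. MCM3, a subunit of the replicative helicase, measured 572 and 602 and then 585 and 582 CPM in Kelly under STM2457 and 547 and 567 and then 352 and 359.6 in DMSO (0.54 ± 0.07, adjusted p = 8.8e-04). RRM2, a subunit of ribonucleotide reductase, fell in both treatments, from 487 and 482 to 381 and 389 CPM in Kelly under STM2457 (-0.35 ± 0.05, adjusted p = 2.7e-04 over both lines). In DMSO it went from 475 and 491 to 236 and 253 CPM (0.50 ± 0.08, adjusted p = 0.0028 for the difference). POLA1, MCM4 and FEN1, the other 3 called under STM2457, had changes of -0.32 ± 0.08, -0.18 ± 0.05 and -0.26 ± 0.08. They lost their calls in 4, 7 and 6 of 8 fits without 1 library (adjusted p up to 0.12, 0.11 and 0.19, each without Kelly at 3 days replicate 2). Scaled to the ERCC spike-ins, none of the G2 and mitosis or S phase differences was called, and their medians were 0.16 and -0.01. The median changes under STM2457 alone were then -0.38 and -0.44, with 20 of 20 and 19 of 22 genes lower.

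**Figure D4:**
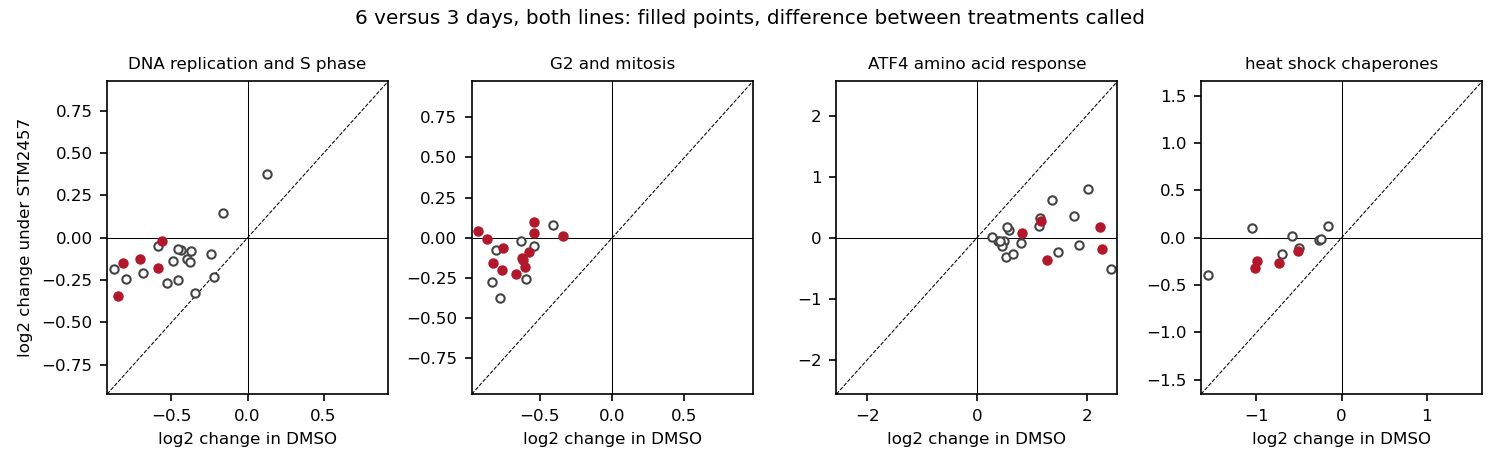
The log2 change (6 versus 3 days, both lines, TMM scaling) under STM2457 against that in DMSO for the tested genes of 4 lists. Filled points are genes whose change differed between treatments and the dashed line marks equal changes. G2 and mitosis genes spread along a DMSO fall near a median of -0.63 at a STM2457 median of -0.08, and amino acid response genes along a DMSO rise with a median of 1.14 at a STM2457 median of -0.05. Under scaling to the ERCC spike-ins no G2 and mitosis difference is called.

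Promoter windows of these lists were searched for elements that such genes are known for. E2F sites (TTTCGCGC, TTTGGCGC or TTTCCCGC, either strand) stood in 14 of 18 S phase windows (77.8%) against 4.47% of tested genes. The cell cycle homology region (TTTGAA or TTTAAA, either strand) stood in 12 of 15 G2 and mitosis windows (80.0%) against 16.2%. The first match in the window is shown in capitals with 10 bases on each side, on the gene's strand, for 1 gene of the first list and 2 of the second whose change differed between treatments: MCM3 at chr6:52284899-52284926, minus strand, CDK1 at chr10:60778160-60778185, plus strand and CDC20 at chr1:43358793-43358818, plus strand. These matches begin at -174 (MCM3), -161 (CDK1) and -178 (CDC20) from the annotated start. They describe letters only, and use of the sites was not tested.
MCM3: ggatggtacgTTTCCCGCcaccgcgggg
CDK1: gtataataaaTTTGAActgtgccaat
CDC20: tctcgtacccTTCAAAtcgcgctccg
CDK1, the mitotic kinase, changed by 0.10 ± 0.07 under STM2457 and -0.54 ± 0.10 in DMSO (0.64 ± 0.12, adjusted p = 0.0080 for the difference). CDC20, which activates the anaphase-promoting complex, changed by -0.01 ± 0.10 and -0.86 ± 0.12 (0.85 ± 0.16, adjusted p = 0.0088).

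Amino acid response genes, which the transcription factor ATF4 switches on when amino acids run short, rose in DMSO under both scalings. Under STM2457 none rose in both lines fitted together by edgeR, DESeq2 or limma-voom, and 1, VLDLR, rose in Kelly. Of 23 tested, 17 rose in DMSO (median 1.14), beside 5.44% of all genes, while under STM2457 the median was -0.05 and only SLC7A5, an amino acid transporter, was called, as lower. The difference was called for 5 genes, all more negative under STM2457, beside 0.162% of all genes, for 2 to 13 without 1 library (lowest without NGP in DMSO at 3 days replicate 2) and for 22 of 23 under ERCC scaling. ASNS, asparagine synthetase, measured 73.6 and 72.7 and then 85.5 and 77.8 CPM in NGP under STM2457, and 104 and 96.7 and then 314 and 295 in DMSO. In Kelly it measured 60.8 and 63.8 and then 83.1 and 79.8 CPM under STM2457, and 91.2 and 107 and then 168 and 162 in DMSO (-0.90 ± 0.17, adjusted p = 0.0091). The libraries of 6 days in DMSO stood above all others in both lines. The DMSO rise was larger in NGP (median 1.60, 23 of 23 genes above 0) than in Kelly (median 0.27, 17 of 23 above 0), with no test of that difference. DDIT4, an inhibitor of mTORC1, measured 20.3 and 21.6 and then 21.2 and 18.2 CPM in NGP under STM2457, 22.0 and 24.1 and then 229 and 245 in DMSO. In Kelly it measured 15.4 and 22.6 and then 27.7 and 23.5 CPM under STM2457, and 22.3 and 27.5 and then 60.3 and 46.4 in DMSO (-2.06 ± 0.40, adjusted p = 0.011 over both lines). SLC7A5 (-0.26 ± 0.07, adjusted p = 0.040) lost its call in 7 of 8 fits without 1 library, with adjusted p up to 0.16 (without NGP at 3 days replicate 1).

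The amino acid response element TGATGNAAN, on either strand, stood in 5 of 19 windows of this list (26.3%) against 1.68% of tested genes. Its first match is shown in capitals for 2 genes whose change differed between treatments: ASNS at chr7:97872458-97872486, minus strand and ATF3 at chr1:212565206-212565234, plus strand. These matches begin at -68 and -191 from the annotated start.
ASNS: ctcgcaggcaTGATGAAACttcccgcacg
ATF3: aaggtcaggaTGATGGAAGgctgtcatat
ATF3, a stress-induced factor of the same family, changed by -0.36 ± 0.24 under STM2457 and 1.28 ± 0.28 in DMSO (-1.64 ± 0.37, adjusted p = 0.032 for the difference, a call lost in 6 of 16 fits without 1 library). The lines also differed under STM2457 for 3 genes of the list. VLDLR, a lipoprotein receptor, measured 9.75 and 16.6 and then 25.5 and 23.6 CPM in Kelly and 57.4 and 43.3 and then 35.0 and 39.0 in NGP (-1.34 ± 0.31, adjusted p = 0.014). The difference was -0.70 ± 0.17 for SLC3A2 and -0.43 ± 0.10 for PHGDH (adjusted p = 0.024 and 0.016). These 3 calls were lost in 2, 4 and 3 of 8 fits without 1 library, with adjusted p up to 0.13 (SLC3A2 without NGP at 6 days replicate 1).

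Some chaperone and sterol genes also fell less than in DMSO. Of 12 heat shock chaperones, 9 fell in DMSO, beside 5.78% of all genes, and 3 under STM2457, beside 2.49%. The difference was called for 4, all more positive under STM2457, beside 0.647% of all genes. HSPA8, the constitutive cytosolic HSP70, went from 1441 and 1509 to 1090.2 and 1119 CPM in Kelly and from 1175 and 1205 to 1009 and 1019.6 in NGP under STM2457 (-0.32 ± 0.05, adjusted p = 2.6e-04). In DMSO it went from 1736 and 1773 to 987 and 957 CPM and from 1197 and 1129 to 527 and 496, a difference of 0.69 ± 0.08 (adjusted p = 2.7e-04). HSP90AA1, the inducible HSP90, changed by -0.25 ± 0.05 under STM2457 and by -0.99 ± 0.11 in DMSO. DNAJA1, a co-chaperone of HSP70, changed by -0.27 ± 0.05 under STM2457 and by -0.74 ± 0.08 in DMSO. The core of the heat shock element, GAANNTTC on either strand, a motif added after the values were seen, stood in 5 of 12 windows (41.7%) against 4.64% of tested genes. Its first match is shown in capitals for HSPA8 at chr11:123062349-123062376, minus strand and DNAJA1 at chr9:33025065-33025092, plus strand. These matches begin at -230 and -198 from the annotated start.
HSPA8: gggcgagcttGAAAGTTCcagaacgctg
DNAJA1: aagggctccaGAAGATTCcacgagcgcc
Under ERCC scaling none of the heat shock chaperone differences was called (median 0.13).

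Of 21 sterol synthesis genes tested under STM2457, 1 rose and 1 fell, beside 3.01% and 2.49% of all genes. Of 22 tested in DMSO 9 fell, beside 5.78%, and the difference was called for 3 of 22, all more positive under STM2457, beside 0.647%. Under ERCC scaling none of these 3 differences was called, and the median of the list moved from 0.38 to 0.01. With TMM scaling the median change in DMSO was -0.23 in Kelly and -0.47 in NGP, with no test of that split. The sterol element by letters, TCACNCCAC on either strand, stood in 0 of 16 windows of this list, against 1.09% of tested genes. The hypoxia element ACGTG stood in 11 of 23 windows of the glycolysis and hypoxia list (47.8%) against 25.8%. HMGCS1, which makes the precursor of mevalonate, measured 202 and 196 and then 231 and 203 CPM in NGP under STM2457 and 184 and 192 and then 98.4 and 90.7 in DMSO (0.82 ± 0.12, adjusted p = 9.0e-04). FDPS, farnesyl diphosphate synthase, differed by 0.62 ± 0.12 (adjusted p = 0.0076). INSIG1, which retains the sterol sensor, was the gene that rose under STM2457 (0.39 ± 0.10, adjusted p = 0.031). It lost the call in 4 of 8 fits without 1 library (adjusted p up to 0.14, without NGP at 3 days replicate 1). ADAMTS9, a secreted metalloproteinase, showed the largest positive difference among genes that also changed under STM2457. It went from 230.1 and 238 to 156 and 191 CPM in Kelly against 242 and 213 to 86.0 and 89.8 in DMSO (0.76 ± 0.12, adjusted p = 0.0021). NEFH fell less than in DMSO (0.43 ± 0.09, adjusted p = 0.012), as did the glycolytic gene PKM (0.38 ± 0.07, adjusted p = 0.0057). TPI1, a glycolytic isomerase, changed by -0.01 ± 0.04 under STM2457 and -0.54 ± 0.06 in DMSO (0.52 ± 0.07, adjusted p = 8.8e-04). The difference was 0.57 ± 0.13 for PLPPR4 (adjusted p = 0.030) and 0.65 ± 0.12 for MORC2 (adjusted p = 0.0063). PLPPR4 lost its call in 6 of 16 fits without 1 library (adjusted p up to 0.071, without NGP under STM2457 at 3 days replicate 1). MORC2's own change under STM2457 (-0.25 ± 0.07, adjusted p = 0.035) was lost in 7 of 8 such fits (adjusted p up to 0.11, without NGP at 3 days replicate 2).

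The difference ran the other way for 24 genes. ANK2, ankyrin B, which anchors membrane proteins of axons, went from 259 and 274 to 171 and 191 CPM in Kelly and from 259 and 239 to 159 and 150.3 in NGP under STM2457. In DMSO it went from 197 and 198 to 214 and 182 CPM in Kelly and from 226 and 200.2 to 192 and 176 in NGP. The days overlapped in DMSO in Kelly and did not under STM2457, and the difference was -0.52 ± 0.11 (adjusted p = 0.013). UNC5B fell in both lines under STM2457, and in DMSO it was lower at 6 days in Kelly (181 and 199 CPM, then 122 and 106) and higher in NGP (179.8 and 168, then 230.3 and 289). Its difference of -1.02 ± 0.25 (adjusted p = 0.049) lost the call in 6 of 16 fits without 1 library, each without an NGP library (adjusted p up to 0.10, without NGP in DMSO at 3 days replicate 2). EIF4B rose less than in DMSO (-0.32 ± 0.07, adjusted p = 0.023), a call lost in 5 of 16 such fits (adjusted p up to 0.064, without Kelly under STM2457 at 6 days replicate 2).

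Of 13 mitochondrially encoded genes, 12 rose in DMSO, beside 5.44% of all genes (median 0.34) and 1 under STM2457, beside 3.01% (median 0.09). Within the lines 3 rose and 2 fell in Kelly, beside 2.75% and 2.42%, and 7 rose in NGP, beside 3.44%. Without 1 library the NGP count was 1 to 9 (lowest without NGP at 3 days replicate 1), and the difference between treatments was called for MT-ND4 alone (-0.33 ± 0.07, adjusted p = 0.026). MT-ND1, a subunit of complex I, went from 4492 and 3944 to 3596 and 3461 CPM in Kelly and from 3718 and 4243 to 4427 and 4832 in NGP. These are opposite directions with a difference of 0.48 ± 0.07 (adjusted p = 1.0e-04). MT-CYB (0.14 ± 0.04, adjusted p = 0.036) lost its call in 4 of 8 fits without 1 library (adjusted p up to 0.10, without Kelly at 3 days replicate 2). Scaled to the ERCC spike-ins the median of the group was -0.21 with 11 of 13 lower.

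In both lines fitted together the remaining lists held few called genes, to be read against 3.01% of all genes higher and 2.49% lower, a share that gives less than 1 gene in each direction for a list of these sizes. Of 19 p53 targets 2 fell. TP53I3, a quinone oxidoreductase, went from 29.0 and 23.5 to 10.6 and 15.5 CPM in Kelly and from 72.1 and 70.5 to 26.3 and 26.5 in NGP (-1.23 ± 0.15, adjusted p = 7.5e-05). MDM2, the ubiquitin ligase of p53, was the other (-0.27 ± 0.05, adjusted p = 0.0022). Of 23 glycolysis and hypoxia response genes, NDRG1 rose from 2.88 and 3.83 to 8.42 and 9.28 CPM in Kelly and from 6.85 and 5.85 to 18.4 and 21.6 in NGP (1.53 ± 0.24, adjusted p = 8.9e-04). SLC2A1, the glucose transporter GLUT1, fell (-0.64 ± 0.10, adjusted p = 4.7e-04). PKM fell as well (-0.18 ± 0.04), losing its call in 2 of 8 fits without 1 library (adjusted p up to 0.052, without NGP at 3 days replicate 2). Within the lines, 3 of the 23 rose and 4 fell in Kelly, beside 2.75% and 2.42% of all genes. In NGP 4 rose and 1 fell, beside 3.44% and 3.25%. A line difference was called for 2, more positive in NGP, beside 1.07%. The treatment difference was called for 4 of 24, all more positive under STM2457, beside 0.647%. Under ERCC scaling it was called for 1, as more negative. Of 20 genes of the m6A machinery none rose and 2 fell, the reader IGF2BP1 (-0.28 ± 0.05, adjusted p = 0.0012) and WTAP, the adaptor of the methyltransferase complex, at -0.28 ± 0.08. The call of WTAP was lost in 6 of 8 such fits (adjusted p up to 0.16, without Kelly at 3 days replicate 1). Of 17 immediate early and ERK feedback genes, ARC rose and SPRY4, a feedback inhibitor of receptor tyrosine kinases, fell (-1.41 ± 0.26, adjusted p = 0.0027). KLF6, a zinc finger factor, fell (-0.62 ± 0.15) with a call lost in 3 of 8 fits (adjusted p up to 0.081, without Kelly at 3 days replicate 1). CALR was the only endoplasmic reticulum chaperone of 18 to pass the test in both lines together (-0.31 ± 0.05, adjusted p = 0.0010). In Kelly 0 rose and 2 fell, beside 2.75% and 2.42% of all genes. In NGP 3 rose and 1 fell, beside 3.44% and 3.25%. The treatment difference was called for 3 of the 18, all more positive under STM2457, beside 0.647%. Under ERCC scaling it was called for 4, all more negative. LAMP1 was the only lysosomal gene of 16 to pass the test in both lines together (-0.35 ± 0.09), its call being lost in 6 of 8 fits (adjusted p up to 0.18, without Kelly at 3 days replicate 2). No gene was called among 16 interferon response, 12 oxidative stress and 10 fatty acid synthesis genes by edgeR in both lines together, while 0, 4 and 4 of them had an unadjusted p below 0.05. DESeq2 called 0, 0 and 1 of them and limma-voom 0, 2 and 1.

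**Figure D5:**
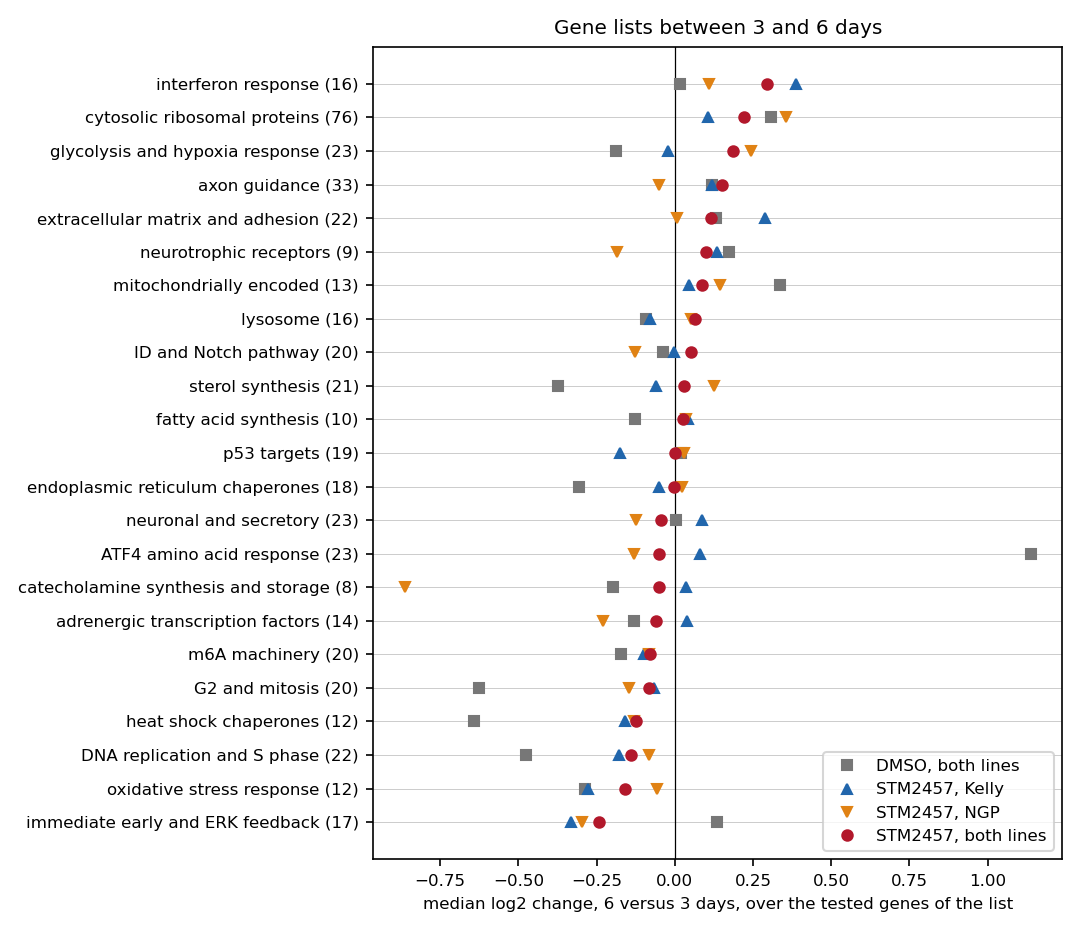
Median log2 change (6 versus 3 days, TMM scaling) of 23 gene lists, with the number of tested genes in brackets: STM2457 in both lines (red circles), Kelly (blue triangles up) and NGP (orange triangles down), and DMSO in both lines (grey squares). The amino acid response list has a median of 1.14 in DMSO against -0.05 under STM2457, and the G2 and mitosis list -0.63 against -0.08. Scaled to the ERCC spike-ins, all 23 medians under STM2457 in both lines are below 0.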

How the data were processed

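The samples were libraries of polyadenylated RNA from Kelly and NGP cells, extracted with TRIzol and made into cDNA with a SMART kit after bead selection, per the labels' protocols. The authors deposited whole-number counts of fragments per gene for each library, made with Subread featureCounts 1.5.3 on GENCODE 33 protein-coding genes, per the file headers. FastQC 0.11.5, Trimmomatic 0.36 and HISAT2 2.1.0 on GRCh38 are named in the submitters' processing notes. Counting was not stated to use strand, so exons shared with an overlapping gene are given where they exceed a few percent.

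The 19923 gene names and 92 ERCC sequences were read from the 8 STM2457 and 8 DMSO libraries taken at 0 h (11993189 to 19291613 fragments each), and counts of names listed on more than 1 chromosome (18) were left as deposited. Genes passed filterByExpr with a minimum count of 10 and a minimum total of 15, ERCC sequences were left out of library sizes, and TMM factors were computed over the 16 libraries. Each comparison was fitted with edgeR 4.0.16 (R 4.3.3), quasi-likelihood with a trended dispersion, and p-values were Benjamini-Hochberg adjusted over all genes tested. The fits were STM2457 with line as a covariate (8 libraries), each line and the difference of the lines (one fit of the same 8), DMSO with line as a covariate and within each line (8), and the difference of treatments (16). Standard errors were derived from each gene's log2 change and F statistic (change over root F). The pipeline was tested on simulated data with known fold changes.

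Named genes are the 10 rises and 10 falls of largest size among genes called in both lines together with a mean of 10 CPM and no overlap of days in a line, the 6 and 6 of largest line difference, up to 5 and 5 of largest difference from DMSO that were also called under STM2457, up to 4 called genes of each list by adjusted p, METTL3 and MYCN. Other genes were named after their values were seen, among them the 10 line differences at 10 CPM in each line, the 6 of opposite direction, and the list genes named for a line or treatment difference. The comparison, the gene lists and the rule were chosen with earlier results of these data known. Alternatives were other size factors, ERCC scaling, no filter, DESeq2 1.42.0, limma-voom 3.58.1, a replicate block, other dispersion models (1 added after seeing the data), all 16 libraries in the fit, the mean of the lines and leaving out each library. Promoter windows came from RefSeq, build GRCh38.p14, and 11277 of 14230 tested genes had one. Values of a few genes that the rule names are not reported here.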

Additional observations from a re-analysis of the deposited data

Results flagged for a closer look

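The day effect under STM2457 differed between NGP and Kelly, by a test of the difference itself in edgeR, for these genes of the report (NGP minus Kelly, log2). It was more positive in NGP for SYNPO (2.03), ARL2 (1.52), RAPGEF5 (1.45), NANOS1 (1.39), NBEAL2 (1.39), MBNL3 (1.17), SLC16A7 (0.86) and MYCN (0.70). It was more negative in NGP for the BMP targets ID1 (-1.99), ID3 (-1.23) and ID2 (-0.75), the receptors and adaptor NGFR (-2.63), UNC5B (-0.61) and DOK4 (-0.44), and the transcription regulators REST (-2.32), LBH (-2.30), FOXC1 (-1.74), EYA1 (-1.23) and TFAP2B (-1.22). The same held for the secreted or surface proteins IGFBP3 (-3.61), ACE (-1.69), COL6A6 (-1.52), ISLR2 (-1.07) and FN1 (-1.01), and for AOPEP (-1.10) and HSP90AA1 (-0.27). Further line differences described above, among them those of HAND2, NRP2, DCX and ALK, are not repeated here. The calls of ID1, ID2 and ID3 were lost in 5, 7 and 5 of 8 fits without 1 library.

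For 11 further genes with a group of 2 libraries at 0 fragments the adjusted p of the line difference is given in place of a fold. It was 0.000511 for CACNA1H, 0.00235 for TRIM58, 0.00258 for RGS14, 0.00609 for PCSK1, 0.0098 for FSTL1, 0.0101 for OSBPL3, 0.0123 for ATOH8, 0.0229 for PPP1R26, 0.0268 for LRIG3, 0.0305 for MARC1 and 0.0372 for IRX6. Leaving out 1 library lost the call of 7 of the 11 (FSTL1, OSBPL3, ATOH8, PPP1R26, LRIG3, MARC1 and IRX6) in at least 1 of 8 fits, with adjusted p up to 1 for LRIG3 (without Kelly at 3 days replicate 2) and MARC1 (without NGP at 6 days replicate 1).

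The day effect also differed between STM2457 and DMSO (STM2457 minus DMSO, log2, 16 libraries). It was more positive under STM2457 for AURKA (0.97), CCNA2 (0.70), MCM3 (0.54) and RRM2 (0.50) of the cell cycle, for HMGCS1 (0.82), FDPS (0.62) and FASN (0.29) of lipid synthesis, and for the chaperones HSP90AA1 (0.75), HSPA8 (0.69), HSP90B1 (0.61) and PDIA6 (0.50). The same held for ADAMTS9 (0.76), MORC2 (0.65), PLPPR4 (0.57), TPI1 (0.52), NEFH (0.43) and PKM (0.38). It was more negative for DDIT4 (-2.06) and ASNS (-0.90) of the amino acid response, for UNC5B (-1.02), COL6A1 (-0.60), ANK2 (-0.52), MT-ND4 (-0.33) and EIF4B (-0.32). COL6A1 lost its call in 10 of 16 fits without 1 library (adjusted p up to 0.11, without NGP under STM2457 at 6 days replicate 1), and FASN turned to -0.078 under ERCC scaling. Of 24 named treatment differences, ERCC scaling ended the call of 16 further ones and 7 stayed called.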

How the results depend on the processing

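Counts of called genes moved most with the scaling and the dispersion model. Under ERCC scaling they were 5048 in both lines together, with 496 of the 784 genes among them, 3565 in Kelly, 3901 in NGP, 532 in DMSO and 955 for the treatment difference. With a common dispersion they were 20, 1, 38, 496 and 0, and 0 for the line difference, where edgeR's main fit called 376, DESeq2 776 and limma-voom 335. DESeq2 called 1398 genes in Kelly, 1569 in NGP and 293 for the treatment difference, and limma-voom 199 for the last. Without a filter the calls were 1234 in both lines together and 310 for the treatment difference. With 16 libraries sharing the spread they were 1460, 2851 in DMSO and 530 for the treatment difference. The mean of the lines gave 1499 and the quasi-dispersion alone, an alternative added after seeing the data, 1181. Without 1 library each, the counts were 508 to 709 in both lines together, 456 to 819 in Kelly, 582 to 1165 in NGP, 233 to 390 for the line difference, 1228 to 1382 in DMSO and 96 to 166 for the treatment difference.

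Directions of named genes turned only under ERCC scaling: EIF4B -0.061, METTL3 -0.17, MT-CYB -0.16, MYCN -0.056 and RPL3 -0.0032 under STM2457, FASN -0.078 for the treatment difference, with the ribosomal protein median at -0.081. Other list medians turned too, as all 23 under STM2457 were then below 0, among them the mitochondrially encoded (-0.21) and the ID and Notch list (-0.25). Of 75 named genes called in both lines together, 55 were called in every fit without 1 library, as were 20 of 24 treatment differences. Of the 28 line differences named by size or for opposite directions, 19 were. Line differences of other genes, such as those named from the gene lists, are not among the 28. Of these, ID1, ID2, ID3, VLDLR, SLC3A2 and PHGDH lost the call in 5, 7, 5, 2, 4 and 3 of 8 such fits, while HAND2, NRP2, DCX and ALK kept it in each. The cause of these shifts was not tested.

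Replicate numbers did not pair the libraries: deviations of same-numbered STM2457 libraries correlated at -0.041 to 0.021 over 6 pairs of groups. With the replicate number as a block the calls were 645 in both lines together, 704 in Kelly, 939 in NGP, 364 for the line difference, 1368 in DMSO and 107 for the treatment difference, and the calls lost included those of FEN1, MCM4, MORC2, MT-CYB, WTAP, COL6A1 and UNC5B. With 2 libraries a group, genes near 0 CPM rest on few fragments.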
